A study of Mus musculus with 3 samples.

Results

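In all, 10 transcription factors that mark fibroblasts and other mesenchymal cells were followed in 3 RNA-seq libraries of mouse cardiac cells, 1 library per condition. They were chosen by name from the gene tables, so they are 10 of the 54532 genes listed, and 10 of the 1469 genes that the tables annotate with a transcription factor family. The study asked how cardiac fibroblasts from infarcted hearts change when they are reprogrammed into induced cardiomyocytes (iCMs). MICFs, the starting cells, were cardiac fibroblasts isolated from adult Myh6-mCherry mice 5 days after myocardial infarction, and this library received no virus and was not sorted. GMTMS-iCMs came from MICFs given lentiviral, doxycycline-inducible Gata4, Mef2c, Tbx5 (together GMT), Myocd and Sall4. The library labelled GMTMM carried GMT, Myocd and Mesp1 by its label. Doxycycline was added at 1 µg/ml to the induction medium of both cocktails, which were induced for 4 weeks. The MICFs were kept in culture for the same time, and no doxycycline is stated for them. The iCMs were sorted for mCherry, a reporter under the promoter of the cardiomyocyte gene Myh6, and 5 sorted samples were mixed into 1 library for each cocktail. Sorting, virus, any difference in doxycycline or medium, and reprogramming therefore cannot be told apart in any comparison with MICFs.

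All 10 genes encode DNA-binding proteins of developmental programmes. Tcf21, Twist1 and Twist2 are basic helix-loop-helix (bHLH) proteins, which bind E-boxes as dimers with partners such as Tcf3 and are held back by Id proteins. Tcf21 is needed for the formation of cardiac fibroblasts from the epicardium, Wt1 and Tbx18 are known for the epicardium itself, and Prrx1 is a homeodomain protein of limb and connective tissue mesenchyme. Snai1, Snai2, Zeb1 and Zeb2 are zinc finger proteins that bind E-boxes and repress epithelial genes such as Cdh1 during epithelial-mesenchymal transition.

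In GMTMS-iCMs the level of 7 of the 10 factors was lower than in MICFs, and that of Zeb2 was higher. These calls were beyond counting error under 4 scalings of the counts, as 30% of 15020 genes were lower and 19.5% higher. Tcf21, Snai1 and Snai2 were more than 10-fold lower by deposited FPKM, Prrx1 and Twist1 were between 5-fold and 8-fold lower, and Tbx18 and Zeb1 were about 3-fold lower. Zeb2 stood at 2.58 times its MICF level and supplied 81.5% of the summed FPKM of the 10 factors, against 17.3% in MICFs. In the library labelled GMTMM Snai1 and Snai2 were lower than in MICFs by FPKM, and Wt1, Twist2, Twist1 and Prrx1 were higher by 1.35-fold to 19.7-fold. Tcf21, Tbx18, Zeb1 and Zeb2 were within 1.14-fold of MICFs. Beyond counting error by FPKM, 35.3% of 15167 genes were higher and 31.3% lower there. By library totals the Twist1 interval included 1 and the Prrx1 fold was 1.09.

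The libraries held 10624118 to 11904484 gene counts. FPKM, fragments scaled by exon length and library size, was used as deposited for levels and folds. It had been scaled by size factors of 1.26, 0.811 and 1.02 for the MICF, GMTMS and GMTMM-labelled libraries. For GMTMS-iCMs over MICFs this multiplied the ratio of counts by 1.55, where library totals would multiply it by 1.12. The main scale for differences was log2(FPKM + 1) after quantile normalization of the 3 libraries, which understates the change of low genes. On it a gene counts as higher or lower past a difference of 1, and changes of highly expressed genes can come out smaller or larger than by FPKM. Folds and levels are given with 95% intervals from the counts (Clopper-Pearson for folds and shares, exact Poisson for levels), which cover counting error only. With 1 library per condition there was no replicate check, no test between conditions was possible, and no p-value is given. Fewer cells of a type and less RNA per cell cannot be told apart in such bulk libraries.

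The labels were checked against the delivered factors and marker genes. Sall4 reads numbered 0, 1190 and 1060 in the MICF, GMTMS and GMTMM-labelled libraries, and Mesp1 had 0 counts in all 3 libraries, so the counted factors were at odds with the GMTMM label. A count of 0 allows up to 3 counts, or 0.252 CPM in the library labelled GMTMM. In MICFs the summed FPKM was 1574 over 12 fibroblast markers, 9798 over 12 macrophage markers and 525 over 10 endothelial markers, with none of these markers at 0 counts. The cultures labelled as cardiac fibroblasts thus held RNA of other cell types. So did the sorted libraries, where the macrophage markers summed to 19077 FPKM with GMTMS and 8966 with the GMTMM label. The 8 cardiomyocyte markers summed to 2.36, 779 and 277 FPKM in the MICF, GMTMS and GMTMM-labelled libraries. Among them was Myh6 (0, 226 and 65.5 FPKM), whose promoter drives the reporter used for sorting, so Myh6 is no independent check.

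Promoter sequence is shown for 3 factors whose windows differ in E-boxes, the letters read by most of the 10 proteins. Each window holds the 250 bases before the RefSeq start (GRCm38.p6), 5′ to 3′ on the gene's strand, with E-boxes (CANNTG) in capitals. Tcf21 (chr10:22820144-22820393, minus strand) had none, Tbx18 (chr9:87731261-87731510, minus strand) had 1 and Snai1 (chr2:167537945-167538194, plus strand) had 1, of the CACCTG form that Snail and Zeb proteins bind.
Tcf21: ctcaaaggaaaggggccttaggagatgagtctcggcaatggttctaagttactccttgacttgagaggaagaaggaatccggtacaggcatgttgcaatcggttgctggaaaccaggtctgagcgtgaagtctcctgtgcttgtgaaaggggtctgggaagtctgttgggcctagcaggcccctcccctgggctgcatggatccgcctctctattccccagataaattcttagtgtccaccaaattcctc
Tbx18: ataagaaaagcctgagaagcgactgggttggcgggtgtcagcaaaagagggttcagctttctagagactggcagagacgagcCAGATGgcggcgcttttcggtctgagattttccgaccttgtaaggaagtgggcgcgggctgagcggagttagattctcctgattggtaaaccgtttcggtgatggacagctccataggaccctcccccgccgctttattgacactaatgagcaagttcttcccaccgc
Snai1: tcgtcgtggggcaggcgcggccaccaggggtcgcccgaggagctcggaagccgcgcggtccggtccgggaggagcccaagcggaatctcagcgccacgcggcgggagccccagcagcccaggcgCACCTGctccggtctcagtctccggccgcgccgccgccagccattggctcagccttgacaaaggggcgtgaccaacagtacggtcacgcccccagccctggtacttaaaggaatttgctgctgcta

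Windows were found for 7 of the 10 factors, with 4 alternative windows for Zeb2. The windows of Twist1, Twist2 and Prrx1 and all 4 of Zeb2 held no CANNTG. The letters CANNTG, which read the same pattern on both strands, were present in 66.2% of 32851 promoter windows of this length, and CACCTG or its reverse complement CAGGTG, a subset of CANNTG, in 17.2%. The Tbx18 E-box began 168 bases and the Snai1 E-box 126 bases before the start. These matches describe the letters and were not tested for binding.

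**Figure D1:**
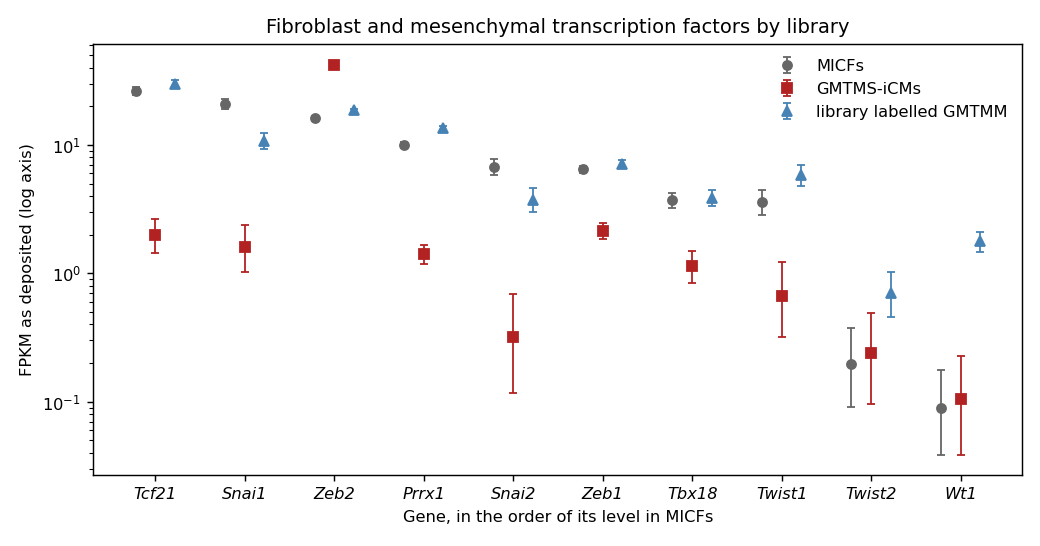
Deposited FPKM (log axis) of each of the 10 factors in the MICF, GMTMS and GMTMM-labelled libraries, 1 library each; bars are 95% Poisson intervals of the counts. In GMTMS-iCMs 7 factors lie below the other libraries and Zeb2, at 42.1 FPKM, lies above them.

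Tcf21 (ENSMUSG00000045680, chr10:22817281-22820174), the bHLH factor of cardiac fibroblasts, had 890, 43 and 823 counts in the MICF, GMTMS and GMTMM-labelled libraries, or 26.3, 1.97 and 30.0 FPKM. Its FPKM was 13.4-fold lower in GMTMS-iCMs than in MICFs (interval 9.84 to 18.6), and 18.5-fold lower (13.6 to 25.8) by library totals. The GMTMS library alone was low, and the other libraries lay close together. On the main scale the differences from MICFs were −3.37 with GMTMS and −0.17 with the GMTMM label, where the sign depended on the scaling (1.14-fold by FPKM, interval 1.03 to 1.25, and 0.921-fold by totals, 0.837 to 1.01). Among the 955 annotated transcription factors with more than 10 counts in MICFs or GMTMS-iCMs, only Sox18, Bcl6b, Erg and Sox7 had a lower GMTMS-minus-MICFs difference on that scale. These 4 are known as endothelial factors.

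The likeness of other genes to Tcf21 was measured as the distance between the pair of differences from MICFs, over 12159 genes with more than 50 counts in a library. With 3 libraries this rests on 2 differences per gene. The nearest was Clec3b (distance 0.0426, in log2), which encodes tetranectin, with 406, 21 and 380 counts in the MICF, GMTMS and GMTMM-labelled libraries. Next came Fn1, which encodes fibronectin, at 0.0999, and the retinaldehyde dehydrogenases Aldh1a1 and Aldh1a2 at 0.130 each. Vegfd, a lymphatic growth factor, was at 0.132.

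Twist1 (ENSMUSG00000035799, chr12:33957671-33959829), a bHLH factor of neural crest and limb mesenchyme, had 84, 10 and 110 counts in the MICF, GMTMS and GMTMM-labelled libraries, or 3.59, 0.661 and 5.78 FPKM. It was 5.42-fold lower in GMTMS-iCMs than in MICFs by FPKM (2.81 to 11.7), a difference of −1.38 on the main scale. The library labelled GMTMM had 1.61-fold more than MICFs by FPKM (1.20 to 2.17), but by library totals the interval of the fold (1.30, 0.973 to 1.75) included 1. Twist1 was thus low in the GMTMS library, with the library labelled GMTMM the highest.

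Twist2 (ENSMUSG00000007805, chr1:91801461-91848028), a close relative of Twist1 known for dermal mesenchyme, was near the floor with 9, 7 and 26 counts in the MICF, GMTMS and GMTMM-labelled libraries. The GMTMS-to-MICFs fold of Twist2 by FPKM was 1.20, and its interval of 0.381 to 3.64 was too wide to show a direction. Twist2 was 3.56-fold higher in the GMTMM-labelled library than in MICFs (1.62 to 8.63). Of its exon bases 46.5% overlap an antisense gene, Gm29100, with 2, 1 and 0 counts, so its reads are uncertain if counting ignored strand.

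Prrx1 (ENSMUSG00000026586, chr1:163245119-163313710), the homeodomain factor of mesenchyme, had 1586, 145 and 1739 counts in the MICF, GMTMS and GMTMM-labelled libraries, or 9.96, 1.41 and 13.5 FPKM. Prrx1 FPKM was 7.06-fold lower in GMTMS-iCMs than in MICFs (5.95 to 8.43) and 1.35-fold higher in the library labelled GMTMM (1.26 to 1.45). By library totals the latter fold was 1.09 (1.02 to 1.17). On the main scale the differences were −2.19 and 0.27, so the GMTMS library stood apart from both others.

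Tbx18 (ENSMUSG00000032419, chr9:87702800-87731260), a T-box factor of epicardium and mural cells, had 251, 50 and 213 counts in the MICF, GMTMS and GMTMM-labelled libraries, or 3.70, 1.14 and 3.86 FPKM. Its FPKM was 3.24-fold lower in GMTMS-iCMs than in MICFs (2.38 to 4.48). The main-scale difference of −1.03 was close to the limit of 1 and lay under it in size in 2 of 12 scalings, the smallest being −0.89. For the library labelled GMTMM the Tbx18 fold over MICFs was 1.05 (0.867 to 1.26), not apart at this depth. An opposite-strand gene, D030062O11Rik, with 8, 4 and 3 counts, covers 20.6% of Tbx18 exon bases.

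Wt1 (ENSMUSG00000016458, chr2:105126529-105173616), a zinc finger factor of mesothelium and epicardium, had 8, 6 and 128 counts in the MICF, GMTMS and GMTMM-labelled libraries, or 0.0897, 0.104 and 1.77 FPKM. The GMTMM-to-MICFs fold by FPKM was 19.7 (9.71 to 46.6), and 15.9 (7.85 to 37.7) by totals. Between GMTMS-iCMs and MICFs the fold of 1.16 had an interval of 0.332 to 3.82, so no difference was detectable at this depth. The mesothelial and epicardial markers beside Wt1 did not move as 1 group. Against MICFs, in the GMTMM-labelled library, 2 of the 8 markers with more than 10 counts (Lrrn4 and Dmkn) were higher and none was lower. These calls were made on the main scale, where the median difference was 0.63. Of all genes tested 6.55% were higher and 3.61% lower there. Over the 12 scalings 2 to 5 of these markers were higher and 0 to 1 lower. By FPKM Upk3b was 3.11-fold higher (1.89 to 5.28) and Gpm6a 2.28-fold lower (1.37 to 3.95). Lrrn4, a mesothelial membrane protein gene, had 7, 87 and 478 counts in the MICF, GMTMS and GMTMM-labelled libraries, whereas Muc16, the mesothelial mucin gene, had 0 counts in all 3. The summed FPKM of the 12 markers was 104, 17.5 and 152 in the same order. Most of each sum came from Aldh1a2 (76.3, 8.66 and 109 FPKM) and Aldh1a1 (25.3, 1.66 and 27.1 FPKM). The sum therefore says little about the other markers, of which Lrrn4 and Dmkn were higher than in MICFs in both reprogrammed libraries. The part of these markers in the Wt1 value was not tested.

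Snai1 (ENSMUSG00000042821, chr2:167538195-167542814), the Snail repressor, had 483, 24 and 203 counts in the MICF, GMTMS and GMTMM-labelled libraries, or 20.7, 1.59 and 10.7 FPKM. Snai1 FPKM was 13.0-fold lower in GMTMS-iCMs than in MICFs (8.63 to 20.5), and 1.93-fold lower in the library labelled GMTMM (1.64 to 2.29). MICFs were highest and GMTMS-iCMs lowest, with the intervals of all 3 levels apart. The main-scale differences from MICFs were −3.20 and −1.16, and the latter was over 1 in size in 9 of 12 scalings.

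Snai2 (ENSMUSG00000022676, chr16:14705852-14709385), which encodes Slug, followed the same order with 197, 6 and 88 counts in the MICF, GMTMS and GMTMM-labelled libraries, or 6.77, 0.320 and 3.73 FPKM. Its GMTMS level was 21.2-fold lower than in MICFs by FPKM, but the 6 counts leave an interval of 9.56 to 58.5. By the same measure its level in the library labelled GMTMM was 1.82-fold lower than in MICFs (1.41 to 2.36), a main-scale difference of −0.77. Snai1 and Snai2 were the only factors of the 10 that were lower in the library labelled GMTMM beyond counting error by all 4 scalings of the counts, as 31.3% of the 15167 genes tested were.

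Zeb1 (ENSMUSG00000024238, chr18:5591860-5775467) had 956, 203 and 848 counts in the MICF, GMTMS and GMTMM-labelled libraries, or 6.47, 2.13 and 7.07 FPKM. It was 3.04-fold lower in GMTMS-iCMs than in MICFs by FPKM (2.61 to 3.55), with a main-scale difference of −1.18. For Zeb1 in the library labelled GMTMM the fold over MICFs was 1.09 by FPKM (0.995 to 1.20) and 0.884 by totals (0.805 to 0.970), so that its direction depended on the scaling.

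Zeb2 (ENSMUSG00000026872, chr2:44983632-45117395), the paralog of Zeb1, had 4680, 7793 and 4331 counts in the MICF, GMTMS and GMTMM-labelled libraries, or 16.3, 42.1 and 18.6 FPKM. Its GMTMS-to-MICFs fold was 2.58 by FPKM (2.49 to 2.68) and 1.86 by totals (1.79 to 1.93). It was the one factor of the 10 whose highest level was in GMTMS-iCMs by FPKM. Its main-scale difference from MICFs was 0.99, short of the limit, and ranged from 0.86 to 1.50 over 12 scalings with 6 of them over 1. Against the library labelled GMTMM it was higher by 1.08, and over 1 in 11 of 12 scalings.

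The paralog pairs were compared within each library, where library scaling has no effect. By FPKM Zeb2 stood at 2.52, 19.8 and 2.63 times Zeb1 in the MICF, GMTMS and GMTMM-labelled libraries. By counts Zeb1 made up 17.0% of the pair (interval 16.0 to 18.0) in MICFs, 2.54% (2.21 to 2.91) in GMTMS-iCMs and 16.4% (15.4 to 17.4) with the GMTMM label. The GMTMS library stood apart from both others. For the Snail pair the share of Snai1 in the counts was 71.0% (67.5 to 74.4), 80.0% (61.4 to 92.3) and 69.8% (64.1 to 75.0) in the MICF, GMTMS and GMTMM-labelled libraries, with overlapping intervals. The share of Twist1 in the counts of Twist1 and Twist2 was 90.3% (82.4 to 95.5), 58.8% (32.9 to 81.6) and 80.9% (73.3 to 87.1), in the same order. Its lower value in GMTMS-iCMs rests on 17 counts.

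**Figure D2:**
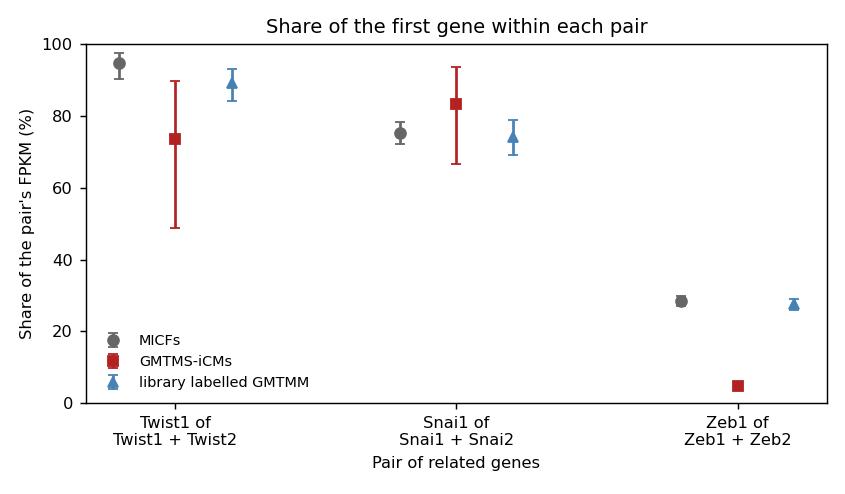
Share of Twist1, Snai1 and Zeb1 in the summed FPKM of its pair (percent), for each of the 3 libraries; bars are 95% Clopper-Pearson intervals of the counts. The Zeb1 share was 28.4%, 4.82% and 27.6% in the MICF, GMTMS and GMTMM-labelled libraries.

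The order of the levels changed with the library. In MICFs, by FPKM, Tcf21 was highest, followed by Snai1, Zeb2 and Prrx1, each apart from the next beyond counting error. Snai2 and Zeb1 came next and were not apart from each other, nor were Tbx18 and Twist1, and Twist2 and Wt1 were lowest. In GMTMS-iCMs Zeb2 came first, and no neighbours below it in the order differed beyond counting error. The library labelled GMTMM had Tcf21 first, then Zeb2, Prrx1 and Snai1, and Twist2 last. FPKM here divides by all annotated exon bases of a gene, 19942 for Zeb2 and 1621 for Snai1, so the order between genes depends on that length. Among the 1469 annotated factors Tcf21 ranked 44th by FPKM in MICFs and 490th in GMTMS-iCMs, and Zeb2 ranked 89th and 51st.

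Summed over the factors other than Zeb2, the FPKM was 77.8, 9.57 and 77.1 in the MICF, GMTMS and GMTMM-labelled libraries. Over all 10 factors the median GMTMS-minus-MICFs difference on the main scale was −1.28, against −0.08 over all 15020 genes with more than 10 counts in either library. Of the 10, 8 had more than 10 counts in either library, Twist2 and Wt1 having fewer. Over these 8, the set filtered as the 15020 genes were, the median was −1.78. On the main scale 7 were lower by over 1, where 9.05% of the 15020 genes were lower, and 0 were higher, where 9.29% were. Beyond counting error 7 were lower, 1 was higher and 2 were neither, under all 4 scalings of the counts (size factors, TMM, library total and upper quartile). By that wider criterion 30% of the 15020 genes were lower and 19.5% higher.

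Between the library labelled GMTMM and MICFs the median difference was 0.05, against −0.09 over all genes tested. All 10 factors had more than 10 counts; 1 (Wt1) was higher, where 6.55% of 15167 genes were higher, and 1 (Snai1) was lower, where 3.61% were. Beyond counting error 6 were higher and 2 lower by deposited FPKM, where 35.3% of the 15167 genes were higher and 31.3% lower. By library totals 3 were higher and 4 lower, where 22.4% of genes were higher and 49.1% lower. For GMTMS-iCMs minus the library labelled GMTMM the median was −1.54, with 8 factors lower in GMTMS-iCMs and 1 (Zeb2) higher. Of the 14713 genes tested 9.6% were lower and 6.4% higher. The comparisons with MICFs share that library.

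**Figure D3:**
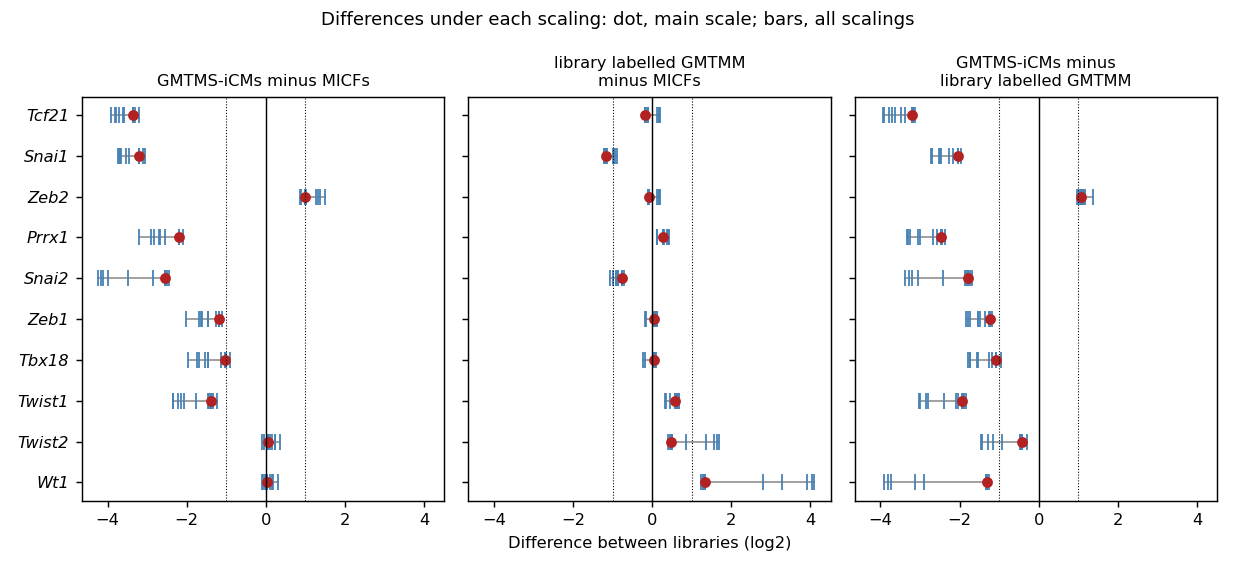
Difference between libraries (log2) of each factor in the 3 comparisons, with a dot for the main scale and bars for each of 12 scalings; dotted lines mark differences of 1. Zeb2 ran from 0.86 to 1.50 in GMTMS-iCMs minus MICFs, and Tcf21, Twist1, Prrx1, Snai1, Snai2 and Zeb1 stayed below −1 there.

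The annotated transcription factors were taken as a background chosen after the tables were seen. Of the 955 with more than 10 counts in MICFs or GMTMS-iCMs, 78 (8.17%) were higher and 93 (9.74%) lower in GMTMS-iCMs by over 1 on the main scale, with a median of −0.19. Snai1 had the 8th, Snai2 the 13th and Prrx1 the 17th lowest difference of these. Zeb2 had the 79th highest.

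**Figure D4:**
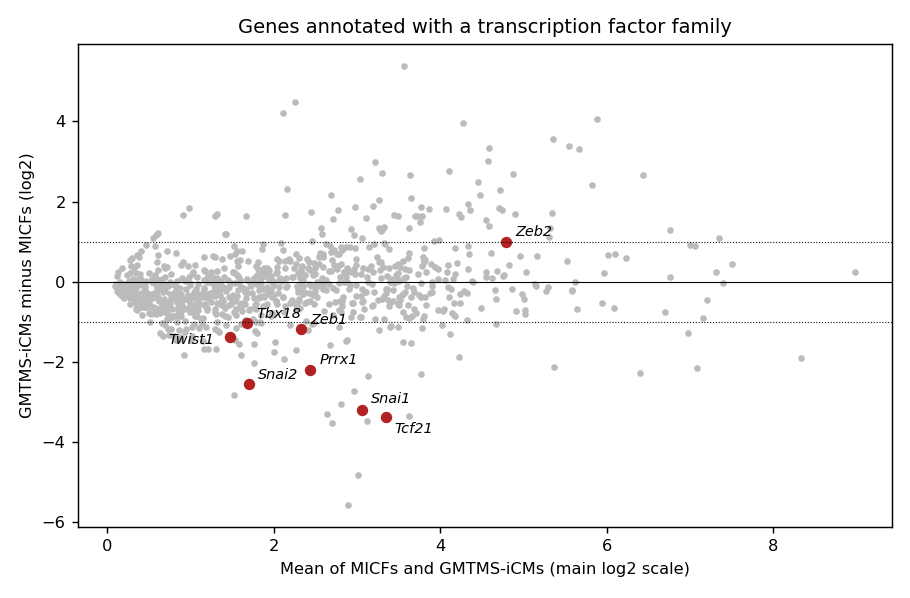
GMTMS-iCMs minus MICFs (log2, main scale) against the mean of both libraries for the 955 annotated transcription factors with more than 10 counts, with 8 of the 10 factors in red. Tcf21 and Snai1 lie among the lowest of the factors and Zeb2 at 0.99.

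The partners and inhibitors of bHLH factors differed among themselves. Of the 7 measured, 1 was higher and 3 lower in GMTMS-iCMs than in MICFs by over 1 on the main scale. For this and the lists below, 9.29% of all genes tested were higher and 9.05% lower in GMTMS-iCMs. With the GMTMM label these shares were 6.55% and 3.61%. Id2, an Id inhibitor, had 979, 5910 and 3496 counts in the MICF, GMTMS and GMTMM-labelled libraries and was higher in GMTMS-iCMs by 2.65 on that scale. Id1 had 519, 28 and 168 counts and a GMTMS difference of −3.35, and Id3 had 3412, 680 and 3727 counts and a difference of −2.28. Tcf3, the E-protein partner, was at −1.51. Id2 (1.70) and Id4 (1.04) were higher and Id1 (−1.59) was lower in the GMTMM-labelled library than in MICFs.

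Among 45 other transcription factors of fibroblasts and mesenchyme, 38 had more than 10 counts in MICFs or GMTMS-iCMs. Of these 13 were lower and 2 higher in GMTMS-iCMs, with a median of −0.55, where 9.05% of all genes tested were lower and 9.29% higher. Hic1, which marks quiescent mesenchymal progenitors, was at −3.29, Nr2f2, the venous factor COUP-TFII, at −2.56 and Egr2, an immediate early factor, at −2.13. The higher ones were Runx1 (2.09) and Foxp1 (1.89), which are also known for blood cells. Both were higher than in MICFs with the GMTMM label too (1.48 and 1.14). Against MICFs the library labelled GMTMM had 7 of 40 higher and 2 (Egr2 and Hic1) lower, with a median of 0.33. Of all genes tested 6.55% were higher and 3.61% lower there. Over the 12 scalings the number lower ranged from 12 to 23 in GMTMS-iCMs, and the number higher from 6 to 11 in the library labelled GMTMM.

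The epithelial genes that Snail and Zeb factors are known to repress had few counts. Of 15 genes only 4 had more than 10 counts in MICFs or GMTMS-iCMs, with 1 higher and none lower on the main scale. Over the 12 scalings 1 to 2 were higher and 0 to 2 lower in GMTMS-iCMs, with medians of 0.11 to 2.59. The gene higher on the main scale was Krt18, an epithelial keratin also expressed in other cells, with 8, 100 and 140 counts in the MICF, GMTMS and GMTMM-labelled libraries. Cdh1, which encodes E-cadherin, had 0, 35 and 7 counts and a GMTMS difference of 0.92. Their summed FPKM was 2.16, 9.57 and 12.0 in the same order. Krt18 was also the 1 of 5 tested that was higher in the GMTMM-labelled library on that scale, with none lower, and 1 to 3 were higher and 0 to 1 lower over the scalings.

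Mesenchymal effector genes were lower with the factors in GMTMS-iCMs. Of 11 such genes 9 were lower than in MICFs on the main scale and none higher, with a median of −1.48 and 7 to 10 lower over the 12 scalings. With the GMTMM label none was called in either direction (median 0.12). Tnc, the matrix protein tenascin C, was 11.9-fold lower in GMTMS-iCMs than in MICFs by FPKM, Thy1, a fibroblast surface protein, 13.2-fold, and Fn1 6.53-fold. Of 12 fibroblast markers 11 were lower (median −2.59), with collagen III (Col3a1) 9.09-fold lower and decorin (Dcn) 6.44-fold lower. Postn and Cthrc1 were higher in the GMTMM-labelled library and none of the 12 was lower (median 0.59), with 2 to 6 higher over the scalings. Their summed FPKM was 1574, 254 and 3100 in the MICF, GMTMS and GMTMM-labelled libraries.

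Markers of other cell types moved beside the factors. The 12 macrophage markers summed to 9798, 19077 and 8966 FPKM in the MICF, GMTMS and GMTMM-labelled libraries, and none was at 0. On the main scale 2 of the 12 (Ptprc, 1.23, and Itgam, 1.07) were higher in GMTMS-iCMs than in MICFs and none lower, but the number higher ranged from 1 to 10 over the 12 scalings, with medians of 0.26 to 1.17. With the GMTMM label 4 (Cx3cr1, Mertk, Csf1r and Mrc1) were lower than in MICFs and none higher, and 2 to 4 over the scalings. Zeb2, which macrophages also express, stood at 1.36, 1.35 and 1.26 times the FPKM of Itgam, the myeloid integrin, in the MICF, GMTMS and GMTMM-labelled libraries. It stood at 1.19, 1.03 and 1.53 times that of Ptprc, the leukocyte phosphatase CD45. For most other markers of the list the ratio was at least as even as for Ptprc. These ran from Adgre1 (0.0771, 0.0740 and 0.0866) to Mrc1 (0.0548, 0.0562 and 0.0811). The ratios to Csf1r, Mertk and Cx3cr1 were less even. Zeb2 stood at 0.0531, 0.0710 and 0.0826 times Csf1r, at 0.440, 0.827 and 1.16 times Mertk and at 2.33, 8.89 and 20.4 times Cx3cr1, which are further macrophage receptors, in the same order. The part of these cells in the Zeb2 value was not tested.

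Endothelial markers summed to 525, 15.0 and 392 FPKM in the MICF, GMTMS and GMTMM-labelled libraries, with none at 0. All 10 were lower in GMTMS-iCMs than in MICFs (median −4.48), and Cdh5, Kdr, Egfl7 and Vwf were lower in the library labelled GMTMM (median −0.84). Mural markers summed to 206, 107 and 404 FPKM with none at 0; of 11, 7 were lower and 1 (Myh11, the smooth muscle myosin) higher in GMTMS-iCMs (median −2.12), and Rgs5, Vtn, Des and Myh11 were higher in the library labelled GMTMM (median 0.89). Of 12 mesothelial and epicardial markers 6 had more than 10 counts in MICFs or GMTMS-iCMs, with 2 higher (Dmkn and Lrrn4) and 3 lower (Aldh1a1, Aldh1a2 and Gpm6a). Schwann cell markers summed to 4.94, 5.51 and 6.60 FPKM, with Sox10 and S100b at 0 in GMTMS-iCMs; none of the 3 tested was called against MICFs there, and Ngfr, 1 of 4, was higher with the GMTMM label. All 8 cardiomyocyte markers were higher in GMTMS-iCMs (median 4.64), and 7 of the 8 were higher with the GMTMM label (median 3.11). The part of any of these cell types in the levels of the 10 factors was not tested.

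**Figure D5:**
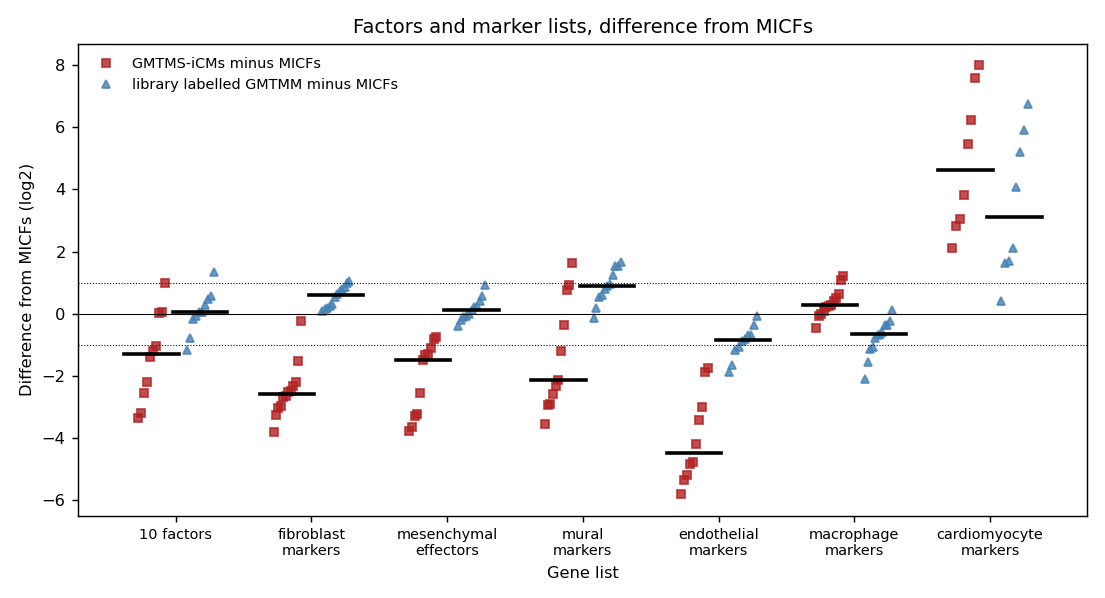
Difference from MICFs (log2, main scale) of the 10 factors and of the genes with more than 10 counts in any library of 6 lists, for GMTMS-iCMs and the library labelled GMTMM; short lines are medians. Fibroblast, endothelial and most mural markers lie below 0 in GMTMS-iCMs with 7 of the 10 factors, and macrophage markers run from −0.46 to 1.23.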

How the data were processed

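RNA-seq was analysed from 3 libraries, 1 per condition. The authors deposited raw counts and FPKM per gene, with replicates mixed before sequencing for the iCMs. The submitters' processing notes name HISAT2 2.0.5 and mm9, whereas 53499 of 54409 shared genes (98.3%) had the start and end of GENCODE M21 (GRCm38), whose coordinates are used here. The counting tool, strand and treatment of multiply mapped reads are not given in the sources used here. The column named cMF was taken as MICFs. Deposited FPKM was quantile-normalized over the libraries and compared as log2(FPKM + 1), for genes with more than 10 counts in either library. Alternatives were no quantile normalization, a pseudocount of 0.1, an FPKM filter of 1, protein-coding genes only, TMM (edgeR 4.0.16), size factors (DESeq2 1.42.0), library totals, upper quartile, thinned counts and a difference over 2. Other scripts used Python 3.11.15 and SciPy 1.17.1, tested on simulated data. Named genes were the 10 factors and, per list, the 3 with the largest difference over 1 in each direction between GMTMS-iCMs and MICFs, with the 5 genes nearest to Tcf21 (above 50 counts). Delivered factors, overlapping genes, the 4 endothelial factors and further list members were named after their values were seen. The factors and lists were chosen with earlier results of these data known. Depth was 10624118 to 11904484 counts.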

Additional observations from a re-analysis of the deposited data

Results flagged for a closer look

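Twist1 and Prrx1 differed from MICFs in opposite directions in the 2 reprogrammed libraries, under every scaling tried. The Twist1 difference on the main scale was −1.38 with GMTMS and 0.57 with the GMTMM label. That of Prrx1 was −2.19 and 0.27. With the GMTMM label neither gene passed a difference of 1 under any scaling. The difference between the reprogrammed libraries was not tested, since each condition has 1 library, and both comparisons share the MICF library. For Twist1 in the library labelled GMTMM the interval of the fold by library totals (0.973 to 1.75) included 1. The Prrx1 fold by library totals was small there, at 1.09 (1.02 to 1.17).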

How the results depend on the processing

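Of 108 alternative values of the medians and counts over the 10 factors, 77 stayed near the reported value, 29 moved and 2 turned their direction; of 327 alternative values of single differences, 80 moved and none over 1 turned. No difference over 1 changed sign, while 17 smaller ones did, among Twist2 and Wt1 in GMTMS-iCMs and Tcf21, Tbx18, Zeb1 and Zeb2 in the library labelled GMTMM. The median in GMTMS-iCMs minus MICFs was −2.05 with TMM, −2.01 with DESeq2 size factors, −2.04 with CPM of the library total and −1.88 with the upper quartile. In that comparison 1 factor (Zeb2) was higher without quantile normalization, with a pseudocount of 0.1, with protein-coding genes only, with TMM, with DESeq2 size factors and with the upper quartile, and 4 were lower at a difference over 2. The median in the library labelled GMTMM minus MICFs turned to −0.12 with CPM and −0.11 with FPKM of the library total. There the count of higher factors was 2 with a pseudocount of 0.1, TMM, DESeq2 size factors and the upper quartile and 0 at a difference over 2, and that of lower factors was 0 without quantile normalization, with TMM, with DESeq2 size factors and at a difference over 2, and 2 with CPM of the library total. The median in GMTMS-iCMs minus the library labelled GMTMM was −2.65 with a pseudocount of 0.1, −2.86 with TMM, −2.87 with DESeq2 size factors, −2.41 with CPM of the library total and −2.68 with the upper quartile; the count of higher factors was 0 with FPKM of the library total and at a difference over 2, and that of lower factors 3 at a difference over 2. The cause was not tested. Scaling by the library total moved the median of all genes in GMTMS-iCMs minus MICFs to −0.46 (CPM) or −0.35 (FPKM), and in the library labelled GMTMM to −0.27 or −0.21. Quantile normalization without the library labelled GMTMM, an alternative chosen after seeing the data, gave a GMTMS median of −1.27 with 7 factors lower and 0 higher. No paired analysis was possible because only 1 library was made per condition. Twist2 and Wt1 in MICFs and GMTMS-iCMs, at 6 to 9 counts, and Snai2 in GMTMS-iCMs, at 6, are limited by depth.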

Other observations

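The families that the 10 factors belong to were also counted in full, after the tables were seen. Of 55 annotated bHLH genes with more than 10 counts in MICFs or GMTMS-iCMs, 15 were lower and 7 higher in GMTMS-iCMs by over 1 on the main scale, and of 54 Homeobox genes 12 were lower and 3 higher. Of 7 T-box genes 2 were lower and 1 higher, and of 436 C2H2 zinc finger genes 28 were lower and 15 higher. In this comparison 9.05% of all genes tested were lower and 9.29% higher. The higher T-box gene was the delivered Tbx5, and the delivered Sall4 had the highest difference among these zinc finger genes. In the library labelled GMTMM against MICFs, 2 bHLH genes were lower and 8 higher of 57, and 1 Homeobox gene was lower and 4 higher of 55. T-box and zinc finger genes gave 0 lower and 2 higher of 8, and 33 lower and 13 higher of 445. Here 3.61% of all genes tested were lower and 6.55% higher, and Tbx5 (3.67) and Sall4 (4.05) were again among the higher ones.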
